A study of Mus musculus with 6 samples.

Results

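The genes described here encode the Wnt ligands, their receptors and secreted inhibitors, and a few factors of ligand secretion and receptor turnover. The rule that picked them reads symbols and no measured value, but it was set with earlier results of these data known. The rule took every symbol that starts with Wnt, Fzd, Sfrp, Dkk or Rspo followed directly by a digit, and 11 genes named one by one (Frzb, Wif1, Lrp5, Lrp6, Axin2, Lgr4, Lgr5, Znrf3, Rnf43, Porcn and Wls). It found 52 of the 21671 named genes of the table: 19 Wnt ligands, 10 secreted inhibitors, 12 Frizzled and Lrp receptors, 6 R-spondins and Lgr receptors, 3 feedback genes and 2 secretion genes.

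RNA was sequenced after removal of ribosomal RNA from subcutaneous tumours of mice of the strain CD1 nude ho. The tumours arose from injected transformed hepatoblasts, immature liver cells, that carried TtRMPVIR shST18, a conditional vector that makes a hairpin RNA against St18 once doxycycline is given. One group of 3 libraries was untreated and is labelled wild type, although the injected cells of both groups carried the vector. The other group of 3 libraries, labelled ST18 knockdown, came from tumours taken 4 h after oral gavage of doxycycline (300 µl of water at 200 mg/ml). No mice given the drug without the hairpin are described, so drug, gavage and hairpin cannot be told apart. The labels and protocols give no age of the mice, and do not say whether the injected cells were 1 clone or whether each library came from its own animal. Without separate animals, p-values reflect the spread of these samples alone, which may be technical.

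Named genes received 12090309 to 16169043 counts per library, and the 52 Wnt genes took 0.136% to 0.162% of them. The hairpin's target, St18, had 12, 23 and 19 counts without and 34, 12 and 61 with doxycycline, so the label ST18 knockdown was not borne out by a lower level (log2 fold change 1.03, SE 0.55, adjusted p = 0.298, edgeR quasi-likelihood test). Without doxycycline replicate 2 it was called higher (1.45, adjusted p = 0.0386), and without replicate 3 it was at 0.575 (adjusted p = 0.639). Markers of the labelled cell type were uneven. The liver genes Alb and Ttr had at most 2 counts and Afp 6 to 20 counts in any library, whereas Sox9 had 382 to 504 and Krt18 722 to 1162. Doxycycline replicate 2 stood apart from replicates 1 and 3 on the second principal component (28.5% of the variance), and values without it are given beside the main results. Tumour and host cells are both of mouse origin, so the counts do not separate them, and fewer cells of a type and less RNA per cell cannot be told apart.

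Wnt proteins are lipid-modified signals that bind Frizzled receptors. Together with the co-receptors LRP5 and LRP6, the receptors stabilise beta-catenin, which switches on target genes with TCF and LEF factors, and other Wnt proteins act through Frizzled, ROR or RYK receptors without beta-catenin. Secreted SFRP and WIF1 proteins bind the ligands, and DKK1 blocks the LRP co-receptors. R-spondins bound to LGR receptors strengthen the signal by clearing the ubiquitin ligases ZNRF3 and RNF43 from the cell surface. In the liver the pathway is known for zonation around the central vein, for growth during regeneration, and for beta-catenin mutations in hepatoblastoma and hepatocellular carcinoma.

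The secreted inhibitors Sfrp1 and Dkk3 and the ligand Wnt9a rose after doxycycline, and no Wnt gene passed the threshold for a lower level. Of the 52 genes, 33 had enough counts to be tested. The 3 that rose stand against a background of 2.84% of all 14809 genes tested that were called higher. For lower calls the count was 0 of 33 in edgeR, DESeq2 and limma-voom, where all genes gave 2.18%, 5.28% and 1.94%. At an unadjusted p under 0.05, edgeR had 9 of 33 higher against 13.1% of all genes, and 2 lower (Wnt7b and Lrp5) against 10.8%. Counts normalised to library size (CPM) did not overlap between the groups for 9 of the 33: 8 were higher after doxycycline, where the background is 15.2% of all genes, and 1, Wnt7b, was lower, where it is 14.4%. The median log2 fold change was 0.41 over the 33 genes and 0.008 over all genes, and 27 of 33 had positive values, against 51.1% of all genes. These figures describe the tested genes only. Sfrp1, Dkk3, Sfrp4 and Axin2 reached the level that the filter on low counts asks for in all 3 doxycycline libraries but not in all untreated ones, so genes that are low in both groups are missing from the count.

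**Figure D1:**
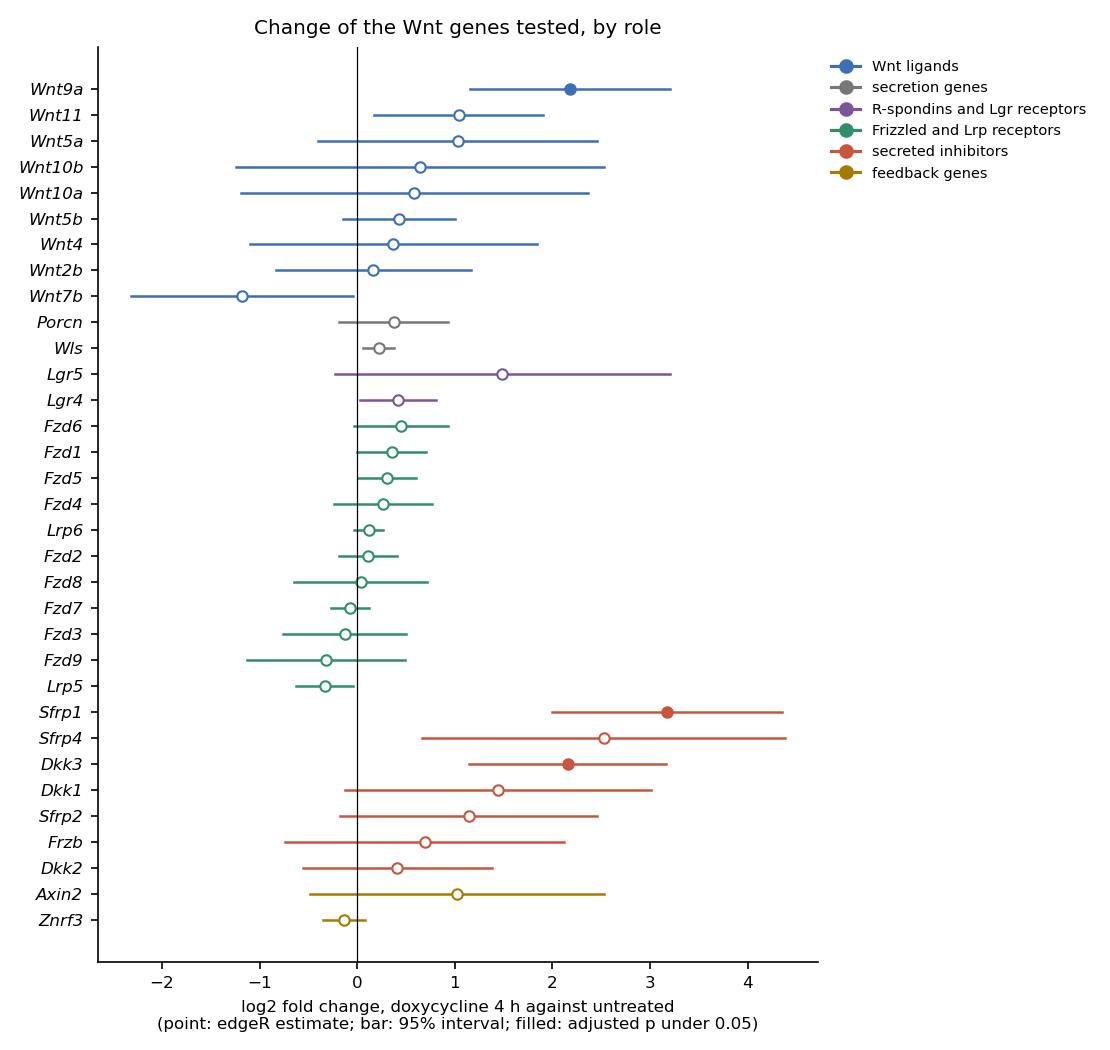
Log2 fold change (x axis, doxycycline 4 h against untreated) of the 33 Wnt genes tested, grouped by role, as the edgeR estimate (point) with its 95% interval (bar). Filled points mark the 3 genes past the threshold, Wnt9a at 2.18, Sfrp1 at 3.17 and Dkk3 at 2.15, and the Frizzled and Lrp receptors lie between -0.33 and 0.45.

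Wnt9a was the 1 ligand of the 9 tested that passed the threshold. In the order of replicates 1, 2 and 3, used throughout, it had 17, 14 and 17 counts untreated and 57, 39 and 121 after doxycycline. Every doxycycline library lay above every untreated one, and replicate 3 was the highest. The mean went from 1.10 ± 0.206 to 5.01 ± 2.46 CPM (SD, n = 3 each), a log2 fold change of 2.18 (SE 0.45, adjusted p = 0.034, edgeR). WNT9A is known from joint and skeletal development and, in the liver, from expression in endothelial and stellate cells. The estimate stayed between 1.75 and 2.48 under 13 alternative analyses. It did not pass in limma-voom (adjusted p = 0.06, where 1.76% of all genes were called higher). Nor did it pass without untreated replicate 1, 2 or 3 (adjusted p = 0.139, 0.129 and 0.164) or doxycycline replicate 1 or 3 (adjusted p = 0.0663 and 0.0883). Of all genes, 11 to 27 were called higher without 1 untreated library, and 180 and 159 without doxycycline replicate 1 or 3, against 421 with all libraries.

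Wnt11 and Wnt7b came next among the ligands and did not pass the threshold. Wnt11, a ligand known mainly for signalling without beta-catenin, had 38, 33 and 35 counts untreated and 42, 57 and 120 after doxycycline. The groups did not overlap, and doxycycline replicate 3 held most of the difference (log2 fold change 1.04, SE 0.38, adjusted p = 0.145; 0.61, adjusted p = 0.356, without it). Wnt7b, a ligand of the beta-catenin branch, went the other way, with 288, 223 and 292 counts untreated against 124, 34 and 187. This corresponds to 18.5 ± 4.01 and 8.15 ± 5.08 CPM (SD, n = 3 each), with the lowest value in doxycycline replicate 2 (log2 fold change -1.18, SE 0.50, 95% interval -2.32 to -0.04, adjusted p = 0.195). The interval reaches nearly to 0, and the point estimate was -0.74 without that library (adjusted p = 0.0623). Strand use in counting is not given, and 8.8% of the exonic bases of Wnt11 and 6.61% of those of Wnt7b also belong to an exon on the opposite strand, so reads of the partners cannot be told apart.

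Promoters of Wnt9a, Wnt11 and Axin2 are shown because these are the ligand that rose, the ligand with the next smallest p, and the gene most used as a readout of beta-catenin. Each run holds the 250 bases before the transcription start, 5′ to 3′ on the gene's strand, from the RefSeq table for GRCm38.p6, another build than the mm9 of the counts. Capitals mark motifs on either strand, with overlapping or adjoining matches run together. These are the GC box, spelled GGGCGG, the core bound by TCF and LEF factors, spelled CTTTGAT, and the TATA box, spelled TATAAA. The windows are chr11:59306680-59306929 (plus strand) for Wnt9a, chr7:98834862-98835111 (plus strand) for Wnt11 and chr11:108920099-108920348 (plus strand) for Axin2.
Wnt9a: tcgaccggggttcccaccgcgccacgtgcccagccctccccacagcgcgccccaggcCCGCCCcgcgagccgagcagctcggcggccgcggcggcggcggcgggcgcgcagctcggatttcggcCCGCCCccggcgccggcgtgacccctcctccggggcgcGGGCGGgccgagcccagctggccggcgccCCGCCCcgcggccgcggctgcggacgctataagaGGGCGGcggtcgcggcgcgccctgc
Wnt11: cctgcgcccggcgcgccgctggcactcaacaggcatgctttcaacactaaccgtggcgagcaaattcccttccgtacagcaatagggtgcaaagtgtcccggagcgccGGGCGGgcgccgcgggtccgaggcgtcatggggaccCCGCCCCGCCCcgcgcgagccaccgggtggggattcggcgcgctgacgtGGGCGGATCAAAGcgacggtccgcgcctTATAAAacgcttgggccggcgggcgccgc
Axin2: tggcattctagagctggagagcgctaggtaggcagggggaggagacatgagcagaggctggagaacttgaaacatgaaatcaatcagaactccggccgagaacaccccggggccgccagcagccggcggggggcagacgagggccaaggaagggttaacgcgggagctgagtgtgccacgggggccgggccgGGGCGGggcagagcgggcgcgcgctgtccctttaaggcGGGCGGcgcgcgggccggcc

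The Wnt9a window held 5 GC boxes and neither other motif, at a GC content of 84.4%. The Wnt11 window held 4 GC boxes, 1 TATA box and 1 TCF and LEF core, read as ATCAAAG on this strand and adjoining a GC box. The Axin2 window held 2 GC boxes and no CTTTGAT, which says only that these letters are not in this window. Counted were 37 promoters of 33 of the 52 genes, with Sfrp1 and Dkk3 not among them. Wnt gene promoters on chr18 were left out of this count, while the shares of all promoters kept that chromosome. CTTTGAT was in 2 of the 37 (Wnt11 and one promoter of Wnt5b) and in 3.21% of all 32851 promoters of this length. GGGCGG was in 25 of the 37 and in 32.7% of all, TATAAA in 5 of the 37 and in 12.4% of all. AAAGTTT, the element bound by the zinc finger family of ST18, was in 2 of the 37 (Fzd10 and Wnt2) and in 4.2% of all. Median GC content was 66.8% over the 37 windows and 52.4% over all, and GC boxes were not compared at matched GC content.

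The remaining ligands were low or varied within the doxycycline group. Per kb of exon, on the scale of CPM, Wnt5b (4.14) and Wnt7b (3.77) had the highest untreated means of the ligands tested, followed by Wnt2b (1.56), and the other 6 were below 1. Wnt5b, a relative of Wnt5a, was at 11.0 ± 1.66 and 14.8 ± 4.02 CPM (SD, n = 3 each; adjusted p = 0.34). Wnt5a, the prototype of signalling without beta-catenin, had 30, 55 and 51 counts untreated and 68, 21 and 185 after doxycycline. Its doxycycline replicate 2 was below every untreated library in CPM and replicates 1 and 3 were above (log2 fold change 1.03, adjusted p = 0.359). The estimate was 1.5 without replicate 2 (adjusted p = 0.0272) and 0.21 without replicate 3 (adjusted p = 0.876). Wnt2b, Wnt4, Wnt10a and Wnt10b lay at 0.17 to 0.64, with overlapping groups and adjusted p from 0.689 to 0.859. Without doxycycline replicate 2 they were at 0.46, 0.86, 1.13 and 1.05, in that order, and none was called.

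Another 10 ligands had too few counts for a test: Wnt1, Wnt2, Wnt3, Wnt3a, Wnt6, Wnt7a, Wnt8a, Wnt8b, Wnt9b and Wnt16. Wnt3a and Wnt7a, both ligands of the beta-catenin branch, had at most 4 counts in any library. Wnt2 had 5, 3 and 1 counts untreated and 3, 2 and 39 after doxycycline, so its total rests on replicate 3. Wnt16 had 4, 1 and 2 untreated counts and 15, 2 and 11 after doxycycline. It was among the genes called higher without doxycycline replicate 2 (log2 fold change 2.51, adjusted p = 0.0479). A library with 0 counts of a gene allows up to 0.188 to 0.251 CPM (3 counts, counting error only), depending on its depth.

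**Figure D2:**
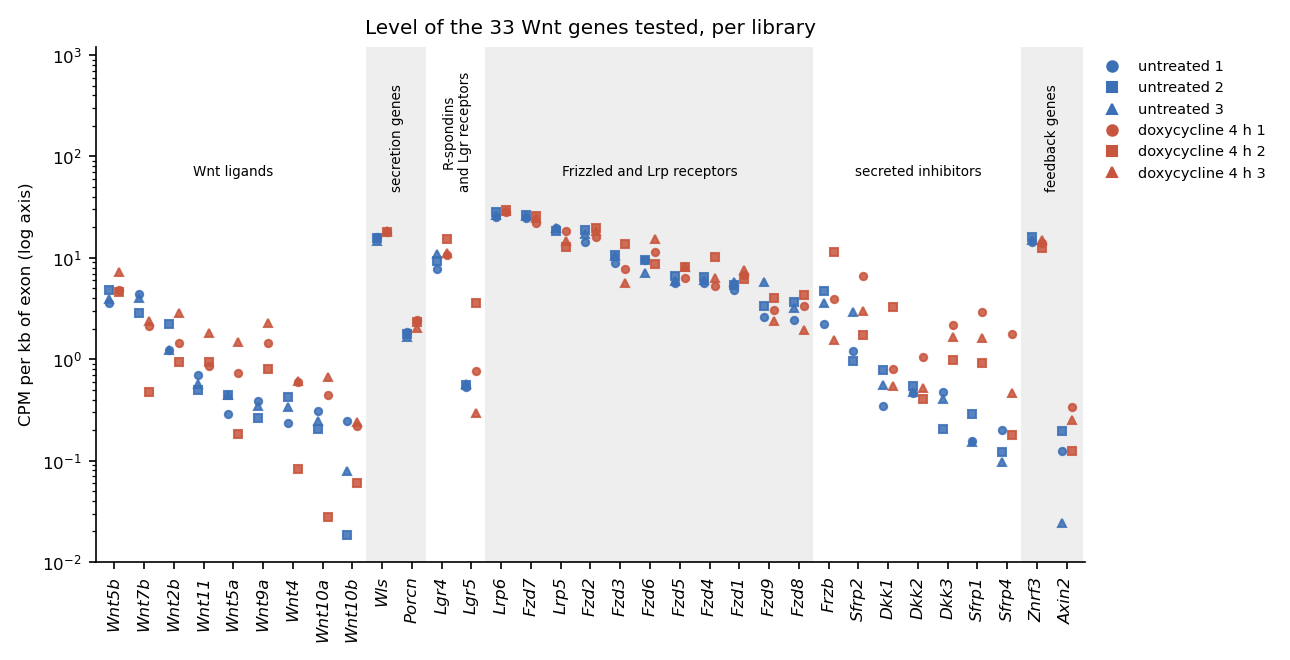
CPM per kb of exon (y axis, log scale) of the 33 Wnt genes tested, grouped by role, with 1 point per library (blue, untreated; red, doxycycline 4 h; circle, square and triangle, replicates 1, 2 and 3). Lrp6 and Fzd7 lie highest, at untreated means of 26.5 and 25.6, while Sfrp1 and Sfrp4 start at 0.199 and 0.139.

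Both genes of Wnt secretion were slightly above the untreated libraries, with no call. Wls encodes the carrier that brings Wnt proteins to the cell surface. Its level was 142, 138 and 129 CPM untreated and 159, 158 and 160 CPM after doxycycline. The groups did not overlap, with a log2 fold change of 0.22 (SE 0.07, 95% interval 0.06 to 0.38, adjusted p = 0.11). With offsets for GC content and exonic length the value was 0.07 (adjusted p = 0.602). Porcn encodes the enzyme that attaches the lipid to Wnt proteins. It had 73, 84 and 74 counts untreated and 88, 101 and 98 after doxycycline, again without overlap in CPM (log2 fold change 0.37, SE 0.25, adjusted p = 0.402).

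Among R-spondins and their receptors, Lgr5 stood out for a single library. LGR5, a receptor of R-spondins and a marker of stem cells in the intestine and of regenerating or pericentral cells in the liver, had 73, 91 and 86 counts untreated. After doxycycline it had 93, 537 and 48 counts, that is 7.79, 36.9 and 3.01 CPM against 5.51 to 5.80 CPM. Doxycycline replicate 2 was far above and replicate 3 below all untreated libraries. The log2 fold change of 1.48 (SE 0.75, adjusted p = 0.277) became -0.09 (adjusted p = 0.903) without replicate 2. Lgr4, the more broadly expressed relative, had 599, 862 and 943 counts untreated and 753, 1308 and 1041 after doxycycline, or 54.3 ± 9.17 and 72.7 ± 14.8 CPM (SD, n = 3 each; log2 fold change 0.42, SE 0.17, adjusted p = 0.184). Replicate 2 was again the highest library, and without it the value was 0.24 (adjusted p = 0.276). Per kb of exon the untreated level of Lgr4 was 9.23 CPM and that of Lgr5 0.553 CPM.

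The R-spondin ligands themselves were too low to be tested. Rspo1 had 2, 1 and 5 counts untreated and 9, 4 and 14 after doxycycline. Rspo2 had 6, 10 and 2 untreated and 2, 0 and 3 after doxycycline. Rspo3, an R-spondin of the endothelium around the central vein in the liver, had 1, 0 and 2 against 4, 3 and 4, with no overlap in CPM but only 3 untreated and 11 doxycycline counts. Rspo4 had at most 5 counts in any library.

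Frizzled and Lrp receptors included the most strongly expressed Wnt genes, and their changes were small. None of the 11 tested passed the threshold (2 higher and 1 lower at an unadjusted p under 0.05, against 13.1% and 10.8% of all genes), and their median log2 fold change was 0.11. Per kb of exon the co-receptor Lrp6 (26.5 CPM untreated), the receptor Fzd7 (25.6), the co-receptor Lrp5 (19.2) and the receptor Fzd2 (16.8) led, and Fzd9 (3.92) and Fzd8 (3.09) were lowest of those tested. Lrp6 had 344, 383 and 360 CPM untreated and 386, 401 and 391 CPM after doxycycline. These groups did not overlap, but the difference was 0.12 on the log2 scale (95% interval -0.03 to 0.27, adjusted p = 0.319).

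Lrp5, the other co-receptor, had 190, 180 and 193 CPM untreated and 181, 124 and 143 CPM after doxycycline. Replicate 1 of the doxycycline group lay within the untreated range and the other two below it (log2 fold change -0.33, SE 0.13, adjusted p = 0.164). Without doxycycline replicate 1 the value was -0.50 and passed (adjusted p = 0.0373), and without replicate 2 it was -0.22 (adjusted p = 0.178). Fzd5, a receptor of the beta-catenin branch, had 521, 721 and 612 counts untreated and 525, 814 and 886 after doxycycline, or 42.0 ± 3.03 and 51.8 ± 6.77 CPM (SD, n = 3 each; log2 fold change 0.30, SE 0.13, adjusted p = 0.202), and 17.8% of its exonic bases are shared with an opposite-strand gene. Fzd1 had 20.4, 22.9 and 24.5 CPM untreated against 28.6, 26.0 and 31.9 CPM, without overlap (log2 fold change 0.35, SE 0.15, adjusted p = 0.206).

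Fzd3 and Fzd6, receptors known for planar cell polarity, split the doxycycline group in opposite ways. Fzd3 had 1492, 2149 and 1959 counts untreated and 1183, 2572 and 1148 after doxycycline, so replicate 2 was high and replicates 1 and 3 were low. Fzd6 had 604, 722 and 506 counts untreated and 649, 615 and 1190 after doxycycline. Neither passed with all libraries (log2 fold changes -0.13 and 0.45, adjusted p = 0.824 and 0.238). Without replicate 2, Fzd3 was lower (-0.57, adjusted p = 0.0275) and Fzd6 higher (0.63, adjusted p = 0.0377). Fzd2, Fzd4, Fzd7, Fzd8 and Fzd9 were between -0.32 and 0.27 with overlapping groups. Of these, Fzd4 and Fzd8 went from 0.27 and 0.04 to -0.06 and -0.24 without replicate 2, and neither was called. Fzd10 had 3 to 13 counts and was not tested.

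The largest log2 fold changes of the Wnt genes tested, those of Sfrp1 and Sfrp4, were of secreted inhibitors. All 7 tested had positive values (median 1.44 on the log2 scale), and 2 of them passed the threshold, against 2.84% of all genes called higher. Sfrp1, Dkk3 and Sfrp4 passed the filter on low counts through the doxycycline libraries, so the count and the median describe these 7 genes and support nothing further. Sfrp1, which binds Wnt proteins through a domain like that of Frizzled, had 9, 20 and 10 counts untreated and 154, 59 and 112 after doxycycline. Every doxycycline library was above every untreated one, with replicate 1 highest and replicate 2 lowest. The mean went from 0.870 ± 0.334 to 7.99 ± 4.50 CPM (SD, n = 3 each; log2 fold change 3.17, SE 0.52, 95% interval 1.99 to 4.35, adjusted p = 0.0186). The estimate lay between 2.65 and 3.52 under the 13 alternatives. It lost the threshold without untreated replicate 1, 2 or 3 (adjusted p = 0.114, 0.0665 and 0.117), where few of all genes were called, as given for Wnt9a.

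Dkk3, a relative of DKK1 that is not known to block the LRP co-receptors as DKK1 does, had 21, 11 and 20 counts untreated and 87, 48 and 89 after doxycycline. The doxycycline libraries kept the same order as for Sfrp1 in CPM, at 7.29, 3.29 and 5.58 for replicates 1, 2 and 3. The mean went from 1.21 ± 0.464 to 5.39 ± 2.0 CPM (SD, n = 3 each; log2 fold change 2.15, SE 0.44, 95% interval 1.14 to 3.17, adjusted p = 0.0342). The estimate lay between 1.85 and 2.41. It did not pass without untreated replicate 1, 2 or 3 (adjusted p = 0.126, 0.121 and 0.156) or doxycycline replicate 1 or 3 (adjusted p = 0.0754 and 0.0874). The counts over all genes in these fits are those given for Wnt9a.

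Sfrp4 and Sfrp2, further members of the SFRP family, were highest in doxycycline replicate 1. Sfrp4 had 11, 8 and 6 counts untreated and 89, 11 and 31 after doxycycline, so replicate 2 lay within the untreated range (log2 fold change 2.52, SE 0.81, adjusted p = 0.112). It passed in DESeq2 (adjusted p = 0.0377, where 5.99% of all genes were called higher) and without replicate 2 (3.0, adjusted p = 0.0132). It was at 1.22 without doxycycline replicate 1 (adjusted p = 0.275) and at 1.89 in limma-voom (adjusted p = 0.236). Sfrp2 had 34, 33 and 94 counts untreated and 170, 54 and 102 after doxycycline, with overlapping groups (1.14, SE 0.58, adjusted p = 0.278). The estimate was 0.46 without doxycycline replicate 1 and 1.80 without untreated replicate 3, and 16.1% of its exonic bases are shared with an opposite-strand gene.

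Dkk1 and Frzb were instead highest in doxycycline replicate 2. Dkk1, the classical antagonist of LRP5 and LRP6, had 11, 30 and 20 counts untreated and 23, 115 and 21 after doxycycline. Replicates 1 and 3 were near the untreated libraries, and the log2 fold change of 1.44 (adjusted p = 0.247) was 0.24 without replicate 2 (adjusted p = 0.78). Frzb, which encodes SFRP3, had 95, 240 and 173 counts untreated and 150, 544 and 79 after doxycycline. Its log2 fold change turned from 0.69 (adjusted p = 0.55) to -0.39 (adjusted p = 0.583) without replicate 2. Dkk2 lay at 0.41 (adjusted p = 0.606) with overlapping groups. Sfrp5, Wif1 and Dkk4 had at most 8 counts in any library and were not tested.

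**Figure D3:**
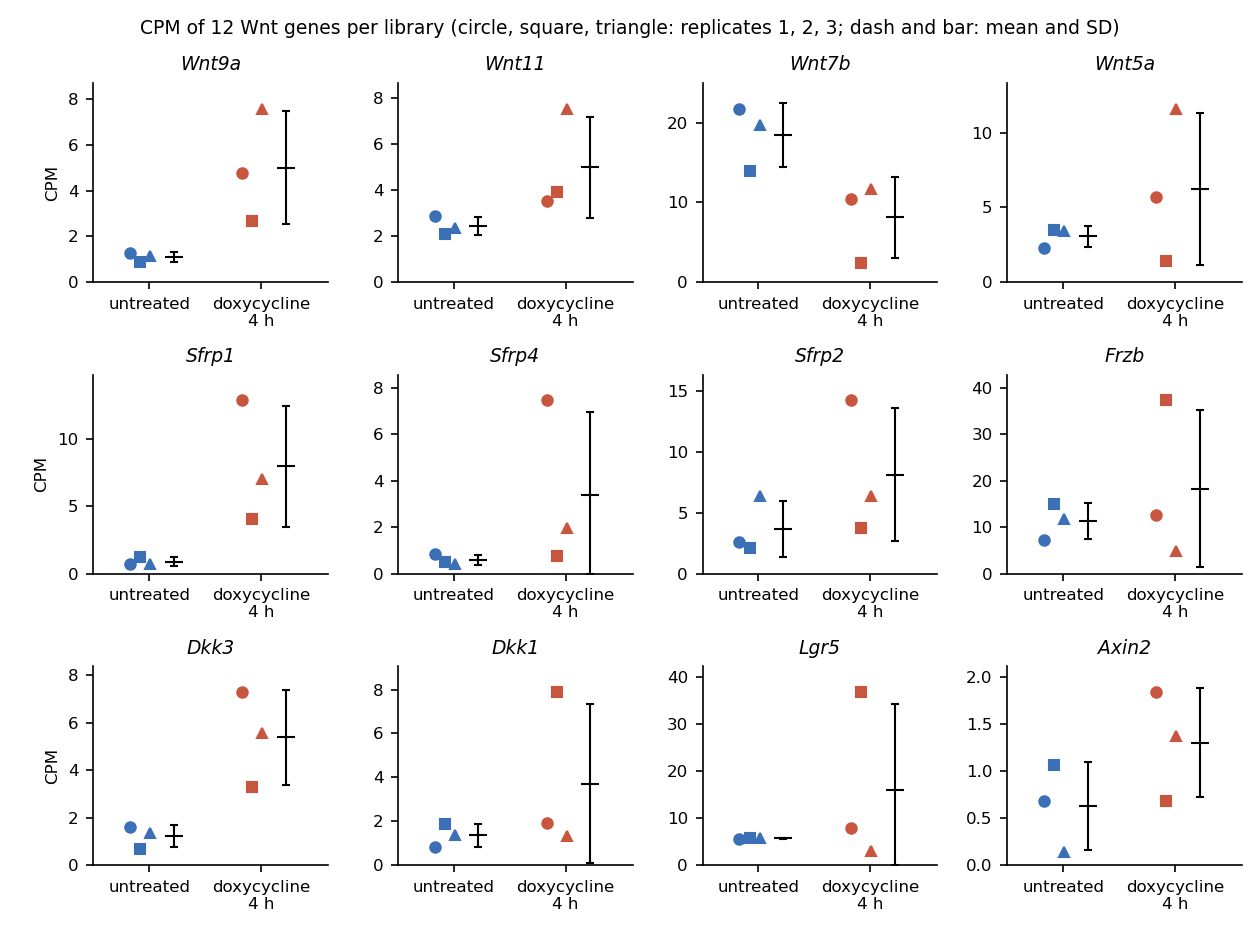
CPM (y axis, from 0) of 12 Wnt genes in each library of the untreated (blue) and doxycycline (red) groups, with the mean and SD of each group beside the points (bars end at 0). Sfrp1, Dkk3 and Wnt9a show groups that do not overlap, while Lgr5, Dkk1 and Frzb are highest in doxycycline replicate 2, at 36.9, 7.89 and 37.3 CPM. The panels were chosen after the values were seen.

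Marker genes of fibroblasts, a cell type known to produce SFRP proteins, and of skeletal muscle were also higher in the doxycycline libraries. Of 14 fibroblast markers, 5 rose (Dcn, Lum, Postn, Mfap5 and Dpt; median of the 14 0.78), against 2.84% of all genes, and none was called lower. Pi16 was at -0.83 without overlap (adjusted p = 0.114), and Fbln1 and Fn1 were at -0.04 and 0.10 (adjusted p = 0.831 and 0.659). The summed level of the list was 1660 to 1690 CPM untreated and 2040 to 2480 CPM after doxycycline. Within the doxycycline group the sum was 2480, 2040 and 2420 CPM in replicates 1, 2 and 3. Replicate 2 was thus lowest, as for Sfrp1, Dkk3, Wnt9a and Sfrp4, and as for 40.5% of all genes tested. Most of the 14 markers were lowest in replicate 2, but Pdgfra, Fap and Col3a1 were highest there, and Lum and Dpt lay between. Of 18 muscle markers tested, 11 rose (median 3.35), against the same 2.84% of all genes. The muscle list summed to 102 to 250 CPM untreated and 1580, 3180 and 466 CPM after doxycycline. Replicate 2, the highest for the muscle sum, was the lowest for Sfrp1 and Wnt9a and the highest for Lgr5, Dkk1 and Frzb. It was also the highest for 37% of all genes tested. No fibroblast marker was at 0 in any library, and of the muscle markers only Pax7 was. The part of these cells in the Wnt results was not tested.

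Among the other marker lists, the summed levels of endothelial, macrophage, neutrophil and adipocyte markers also separated the groups. Of 10 endothelial markers 2 rose (summed level 354 to 385 CPM untreated, 435 to 473 CPM after doxycycline), against 2.84% of all genes. Only Eng and Cldn5 of this list had negative values, at -0.27 and -0.065, with overlapping groups. Of 10 macrophage markers 3 rose (median 0.53), with sums of 376 to 450 CPM untreated and 519 to 685 CPM after doxycycline. Cd68, a macrophage marker, went the other way at -0.30, with overlapping groups. The adipocyte list summed to 31.2 to 37.4 CPM untreated and 40.4 to 48.7 CPM after doxycycline. Most of this sum was Fabp4, at 28.3 to 34.7 and 34.9 to 41.5 CPM. Adipoq, Plin1, Lep and Cidec had too few counts for a test. Of 7 neutrophil markers 1 passed the threshold, Csf3r, which fell, against 2.18% of all genes called lower. All 7 had negative values (median -1.21). For 5 of them the groups did not overlap, against 14.4% of all genes that were lower without overlap. The summed neutrophil level was 150 to 206 CPM untreated and 84.2 to 128 CPM after doxycycline. None of the mural (8), lymphocyte (4), adipocyte (2), Schwann cell and nerve (5) or hepatoblast and biliary (9) markers tested passed. The summed keratinocyte markers were high in untreated replicate 2 and doxycycline replicate 1 only (95.7 and 116 CPM, against 7.48 to 9.97 CPM in the other libraries). Lor did not follow the sum, at 1.51 CPM in doxycycline replicate 1 and 1.89 CPM in untreated replicate 1. The part of these cell types in the results was not tested either.

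Feedback genes, which beta-catenin signalling induces and which in turn dampen it, showed no call. Axin2 had 9, 17 and 2 counts untreated and 22, 10 and 22 after doxycycline, with overlapping groups. Its mean was 0.628 ± 0.469 and 1.30 ± 0.582 CPM (SD, n = 3 each; log2 fold change 1.02, SE 0.66, 95% interval -0.48 to 2.53, adjusted p = 0.388). With 1 library left out it ran from 0.55 without untreated replicate 3 to 1.65 without untreated replicate 2. A fall and a rise both lie in this interval at 2 to 22 counts per library. Opposite-strand exons cover 3.8% of the exonic bases of Axin2, 4.58% of those of Wnt5a and 3.15% of those of Fzd6, and none of those of Sfrp1, Dkk3 and Wnt9a. Znrf3, a ubiquitin ligase that removes Frizzled receptors from the cell surface, was more abundant, with 1496, 2016 and 1744 counts untreated and 1306, 1426 and 1895 after doxycycline, or 119 ± 6.92 and 109 ± 10.4 CPM. Its log2 fold change of -0.13 had a 95% interval of -0.35 to 0.08 (adjusted p = 0.445). Rnf43, its relative, had 7, 8 and 6 counts untreated and 12, 1 and 8 after doxycycline and was not tested.

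Known targets of beta-catenin showed no common direction. Of 35 targets listed and found in the table, 23 were tested. Of the 35, 7 were among the Wnt genes above and 6 among the other pathway genes below. Ephb2, an ephrin receptor of the intestinal crypt, fell, where 2.18% of all genes did, and the other 22 did not pass. The median log2 fold change of the 23 was 0.03. Ephb2 had 2410, 2924 and 2784 counts untreated and 1864, 2173 and 2370 after doxycycline (log2 fold change -0.29, SE 0.07, adjusted p = 0.0457). Glul, the glutamine synthetase of pericentral hepatocytes, was at 100 ± 4.46 and 128 ± 8.90 CPM without overlap (0.35, SE 0.09, adjusted p = 0.0514). Nkd1, described below, had the next smallest p and was at -1.05 without overlap. Tnfrsf19 was at -1.10 (adjusted p = 0.183) and Myc at -0.38 (adjusted p = 0.428). No target gene was called in limma-voom, without the filter, or with GC and length offsets, nor without untreated replicate 1, 2 or 3 or doxycycline replicate 1 or 3, so Ephb2 did not pass there. Of all genes, 11 to 27 were called higher and 12 to 25 lower without 1 untreated library. Without doxycycline replicate 1 or 3, 180 and 159 were higher and 236 and 130 lower. Without doxycycline replicate 2, 5 target genes were called in either direction, where 8.18% of all genes were called higher and 5.69% lower.

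Among 66 other genes of the pathway found in the table, 63 were tested, 1 rose and 1 fell, against 2.84% and 2.18% of all genes. Cthrc1, which encodes a secreted protein that binds Wnt and Frizzled, rose from 0, 0 and 4 counts to 99, 31 and 154 (log2 fold change 6.07, adjusted p = 0.0181). It is a fibroblast product, was listed with its result known, and its fold rests on the 4 counts of untreated replicate 3. Dvl2, one of the Dishevelled adaptors that pass the signal on from Frizzled, fell from 82.5 ± 2.21 to 61.3 ± 4.59 CPM (SD, n = 3 each; log2 fold change -0.43, SE 0.09, adjusted p = 0.041). None of the 63 was called without untreated replicate 1, 2 or 3 or doxycycline replicate 1 or 3. Without doxycycline replicate 2, 13 were called in either direction. The counts and shares of all genes in these fits are those given for the target genes.

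Close to the threshold were Ror1, a receptor for Wnt5a, and Daam2, which links Dishevelled to the cytoskeleton. Ror1 had 12, 10 and 11 counts untreated and 59, 22 and 50 after doxycycline (log2 fold change 2.06, SE 0.50, adjusted p = 0.0524). Daam2 had 83, 92 and 83 against 191, 120 and 250 (1.18, SE 0.30, adjusted p = 0.0598). In both, as in Sfrp1, doxycycline replicate 2 was the lowest of its group and still above the untreated libraries. Nkd1, an inhibitor of Dishevelled that beta-catenin induces, had 122, 160 and 135 counts untreated and 59, 86 and 46 after doxycycline. It was lower in every doxycycline library (-1.05, SE 0.31, adjusted p = 0.0891). Tle2, a co-repressor of TCF factors, was at 0.50 (adjusted p = 0.0843).

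The spread inside the doxycycline group exceeded that between the groups for several Wnt genes. Replicate 2 was the lowest doxycycline library for 19 of the 33 genes tested, the highest for 12 and between the others for 2, against 40.5%, 37% and 22.5% of all genes. Without it, 7 of 36 Wnt genes tested were called higher (Sfrp1, Wnt9a, Dkk3, Sfrp4, Wnt5a, Fzd6 and Wnt16), against 8.18% of all genes. Of these, Sfrp1, Dkk3 and Sfrp4 passed the filter on low counts through the doxycycline libraries, and Wnt16 was not tested with all libraries. The count thus describes the genes tested in this fit and supports nothing further. Fzd3 was called lower, against 5.69% of all genes. Sfrp1, Wnt9a and Dkk3 were called with and without this library, at 3.48, 2.48 and 2.41 on the log2 scale without it. Replicate 2 was the lowest doxycycline library for each of them, so leaving it out raised the estimates and is no check of the calls. None of them passed when an untreated library was left out. Wnt9a and Dkk3 did not pass without doxycycline replicate 1 or 3 either.

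**Figure D4:**
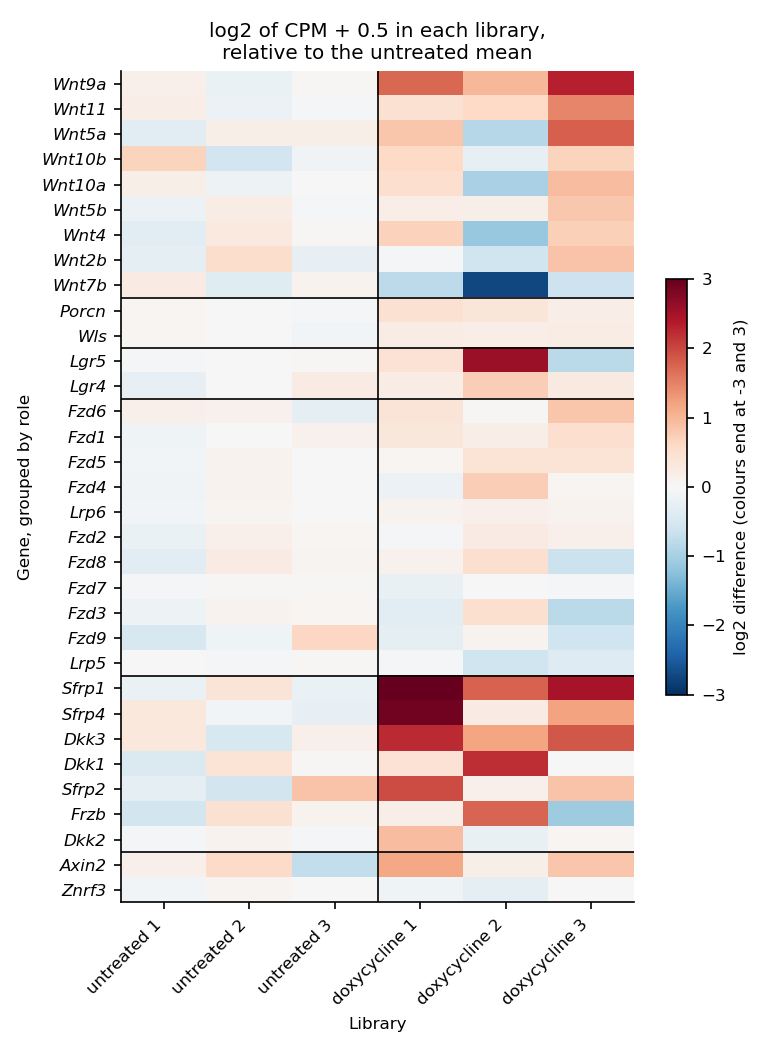
Log2 of CPM + 0.5 in each library (columns) minus the untreated mean of the gene, for the 33 Wnt genes tested (rows, grouped by role; red, above; blue, below; colours end at -3 and 3). Sfrp1 and Dkk3 are above 0 in all 3 doxycycline libraries, whereas Lgr5 is at 2.60 and Wnt7b at -2.72 in doxycycline replicate 2.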

How the data were processed

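Deposited values were raw read counts per gene symbol, 1 column per library. Per the submitters' processing notes the authors used TopHat2 2.0.8, TopHat, HTSeq and the build mm9, listed with no role or order. Strand use in counting, and how duplicate and multiply mapped reads were treated, is not given. Of 21761 rows, 90 without a gene name (0.0361% to 0.0402% of each library's counts) stayed out of library sizes and tests.

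Counts were analysed in R 4.3.3 with edgeR 4.0.16: filterByExpr (minimum count 10, about 0.686 CPM), TMM scaling (factors 0.985 to 1.02), the robust quasi-likelihood test, two-sided, and Benjamini-Hochberg adjustment over all genes with a threshold of 0.05. Fold changes are doxycycline against untreated. SE was taken from the size of the log2 fold change and the F statistic, and 95% intervals from the t distribution. CPM uses TMM-scaled totals. Exonic length and exon overlap came from GENCODE M21, another build (GRCm38), matched by symbol for all 52 genes. The scripts were tested on simulated data.

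Groups and replicate numbers came from the sample titles. Given with values per library were the Wnt genes past the threshold, the 3 with the smallest p in each role, and Axin2. Further Wnt genes (Dkk1, Frzb, Sfrp2, Wnt5a, Fzd3, Fzd6, Lrp6, Wnt2 and Wnt16, and R-spondins) and Myc were added after their values were seen. From the pathway and target lists, genes past the threshold and up to 4 more were named. The genes, lists and tests were chosen with earlier results of these data known. Alternatives were DESeq2 1.42.0, limma-voom (limma 3.58.1), other scaling, no filter, GC and length offsets, a replicate block and leaving out each library.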

Additional observations from a re-analysis of the deposited data

How the results depend on the processing

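The count of Wnt genes called higher was 3 with RLE factors, with library totals only, without the filter, and with GC and length offsets, 4 in DESeq2 and 2 in limma-voom. It ranged from 0 to 7 when 1 library was left out: 0 without untreated replicate 1, 2 or 3 (7, 3 and 6 higher at an unadjusted p under 0.05), 1 without doxycycline replicate 1 or 3, and 7 without doxycycline replicate 2. The count called lower was 0 to 1 when 1 library was left out and 0 otherwise. The median log2 fold change was 0.31 in limma-voom and 0.27 to 0.45 without 1 library. Over all genes, DESeq2 called 887 higher and 782 lower and limma-voom 261 higher, and without 1 library 11 to 1244 were higher and 12 to 866 lower. Other pathway genes called numbered 6 in DESeq2, 4 without the filter and 0 to 13 without 1 library. Target genes called numbered 3 in DESeq2, 0 in limma-voom, without the filter and with GC and length offsets, and 0 to 5 without 1 library. Each fit without 1 library holds 5 libraries, and the cause of the shifts was not tested. With 1 library left out, the log2 fold change of Lgr5 ran from -0.088 to 1.98 and that of Frzb from -0.39 to 1.14, both lowest without doxycycline replicate 2 and never called. Libraries with the same replicate number did not deviate together (Pearson r across 14809 genes -0.006, -0.082 and 0.008 for numbers 1, 2 and 3). No pairing by number was thus seen, although 3 libraries per group cannot exclude it. With the replicate number as a block, 215 genes were higher and 179 lower, the Wnt genes called higher stayed 3, other pathway genes numbered 1 and target genes 0. Genes with few counts, such as Axin2, Rnf43 and the R-spondins, are limited by depth.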
